A study of Mus musculus with 72 samples.

Results

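The comparison described here set the hippocampus of Gnb5 knockout mice against that of wild-type mice, by RNA sequencing of bulk tissue. Its members were chosen by the tissue and genotype labels: 6 knockout and 6 wild-type hippocampal libraries of the 72 libraries in the series. All 12 mice were males aged 18 weeks, and each gave both hippocampi. The study modelled the human disorder of GNB5 loss, in which heart rhythm and brain function are both affected, and it also sampled atria, ventricles, cerebellum and cerebral cortex. The knockout mice (Gnb5-/-) carried a germline deletion of Gnb5 exon 3, and the line was recovered from cryopreserved sperm. The methods give the strain as C57BL/6J. The study bred mouse cohorts from heterozygous parents and called the wild types of its heart recordings littermates. Whether the animals compared here were littermates is not stated. The tissue was not sorted into cell types, so fewer cells of a type and less RNA per cell cannot be told apart in any result below.

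Gnb5 encodes Gβ5, the atypical β subunit of heterotrimeric G proteins. Most Gβ subunits pair with a Gγ subunit, whereas Gβ5 binds the R7 family of regulators of G protein signalling (RGS proteins: Rgs6, Rgs7, Rgs9 and Rgs11) and is needed for their stability as proteins. The complex speeds up GTP hydrolysis by inhibitory Gα subunits, and in neurons it thereby shortens the opening of the G protein-gated potassium (GIRK) channels that inhibitory receptors switch on. In the hippocampus, GABA-B, adenosine and opioid receptors are among those that act through this route. In the retina, the same partnership with Rgs9 ends the light response.

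Stretches of 4 processed pseudogenes are printed here because their counts, given further below, moved with genotype although they lie on 4 chromosomes other than 9. A processed pseudogene is a copy of a spliced messenger RNA inserted back into the genome. The protein-coding transcript most like each of them, by a BLAST search of the GENCODE M21 transcripts, came from a gene on chromosome 9, which carries Gnb5. Each pair of lines gives 90 aligned bases of the copy and of the gene, taken from coding sequence where the pair differed most, 5′ to 3′ on the strand of each gene, in build GRCm38. Capitals mark the bases that differ.
Gm7049 (chr13:62813567-62813656, plus strand): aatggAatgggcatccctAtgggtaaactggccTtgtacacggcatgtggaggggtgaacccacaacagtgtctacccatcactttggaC
Me1 (chr9:86650886-86650975, minus strand): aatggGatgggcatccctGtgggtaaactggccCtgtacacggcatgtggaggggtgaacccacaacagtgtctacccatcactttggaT
Oaz2-ps (chr3:135526233-135526322, minus strand): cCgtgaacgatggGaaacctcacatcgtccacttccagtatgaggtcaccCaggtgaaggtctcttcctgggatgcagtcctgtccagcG
Oaz2 (chr9:65687829-65687918, plus strand): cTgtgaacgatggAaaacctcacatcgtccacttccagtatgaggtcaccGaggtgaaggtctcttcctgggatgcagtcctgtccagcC
Gm11868 (chr4:18845463-18845552, minus strand): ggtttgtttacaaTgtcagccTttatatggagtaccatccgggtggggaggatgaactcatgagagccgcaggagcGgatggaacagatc
Cyb5r4 (chr9:87029504-87029593, plus strand): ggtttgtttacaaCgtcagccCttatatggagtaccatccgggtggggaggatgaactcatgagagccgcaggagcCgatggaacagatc
Gm8210 (chr1:43189366-43189455, plus strand): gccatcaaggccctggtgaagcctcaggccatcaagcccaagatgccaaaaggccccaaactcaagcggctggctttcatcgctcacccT
Rpl29 (chr9:106431177-106431266, plus strand): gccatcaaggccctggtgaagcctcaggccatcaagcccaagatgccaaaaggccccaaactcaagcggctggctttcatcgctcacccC
The pairs differ at 4, 4, 3 and 1 of the 90 bases, so a short read from one copy can match the other closely, and counts of either member are uncertain for that reason.

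The 12 libraries held between 35449343 and 48807435 reads counted in genes, and no measure of library quality separated the genotypes (exact two-sided permutation p from 0.143 to 0.63). Hippocampal identity was checked in the wild-type libraries in CPM, a gene’s counts per 1000000 of the library’s scaled total, here scaled over the 36 brain libraries. Prox1, which marks dentate granule cells, lay between 118 and 176 CPM in hippocampus, 59.1 and 99.8 in cerebellum and 14.2 and 16.5 in cortex. Fibcd1, which marks CA1 pyramidal cells, lay between 145 and 211 CPM in hippocampus against 9.94 to 25.5 in cortex and 0.159 to 0.407 in cerebellum. Wfs1, another CA1 marker used below, was not particular to hippocampus. It lay between 112 and 169 CPM there, 158 and 224 in cortex and 44.7 and 51.5 in cerebellum.

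One library stood apart on chromosome 9. Over the 30 chromosome 9 genes, Gnb5 left out, that differed between genotypes in the other 11 libraries, wild-type replicate 1 lay at a median of 0.506 on a scale where 0 is the mean of the other wild-type libraries and 1 the mean of the knockouts. For 21 of these genes it lay between 0.25 and 0.75. No other library had a median beyond −0.171 or 0.043 when placed in the same way. Cortex and cerebellum of the same mouse had medians of 0.459 and 0.452 over the same 30 genes, with a wider spread. In cortex 11 genes lay between 0.25 and 0.75, over a range of −14.2 to 9.79. In cerebellum 18 did, over a range of −2.32 to 2.29. For Gnb5 itself the library lay at 0.023 and for Guca1b at 0.012, both among the wild types. Results that rest on this library are therefore given with and without it.

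Gnb5 (ENSMUSG00000032192, chromosome 9, 75306288 to 75345876, plus strand) was the targeted gene and was low in every knockout library. The knockouts had 11.5, 12.8 and 13.8 CPM as lowest, median and highest values, and the wild types 94.0, 99 and 106 CPM. The groups were far apart, and the labels of all 12 libraries matched their Gnb5 level. The means were 12.8 ± 0.832 CPM in knockouts and 99.5 ± 4.11 CPM in wild types (SD, n = 6 each), a 7.75-fold difference. On the log2 scale Gnb5 fell by 2.95 (SE 0.05, adjusted p = 2.21e-14, edgeR quasi-likelihood test with Benjamini-Hochberg adjustment over all genes tested), and the exact two-sided permutation p was 0.00216, the smallest that dividing 12 mice into groups of 6 allows. The counts cover all exons of the gene, those left in the knockout included, and the knockout mean was 0.129 of the wild-type mean. Gm19531, an antisense transcript inside Gnb5, had 0.727 to 1.08 CPM in knockouts and 1.24 to 2.39 CPM in wild types (log2 fold change −0.98, adjusted p = 0.0403; 0.0817 without wild-type replicate 1). How strand was set in counting is not given in the sources used here, so Gm19531 cannot be told apart from Gnb5 reads.

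Of 17588 genes tested, 29 (0.165%) were differentially expressed genes (DEGs) at an adjusted p below 0.05, 15 of them higher (0.0853%) and 14 lower (0.0796%) in the knockouts. Chromosome 9 held 25 of the 29, which was 2.4% of the 1042 genes tested there, against 4 of 16546 genes (0.0242%) on all other chromosomes. Groups did not overlap for 26 of the 29, beside 0.648% of all genes tested. Leaving out each of the 12 libraries in turn kept 20 of the 29 called in all 12 fits: Gnb5, Guca1b and 18 other genes of chromosome 9.

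Guca1b (ENSMUSG00000023979, chromosome 17, 47385393 to 47392967, plus strand) had the smallest adjusted p away from chromosome 9. It encodes a guanylate cyclase-activating protein, a calcium sensor that restores cyclic GMP in photoreceptors after light. The knockouts had 10.8, 11.6 and 12.6 CPM as lowest, median and highest values and the wild types 0.672, 0.996 and 1.27 CPM. Every knockout was several times above every wild type. The means were 11.6 ± 0.713 and 0.956 ± 0.221 CPM (SD, n = 6 each), a 12.1-fold rise (log2 fold change 3.60, SE 0.12, adjusted p = 5e-10).

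**Figure D1:**
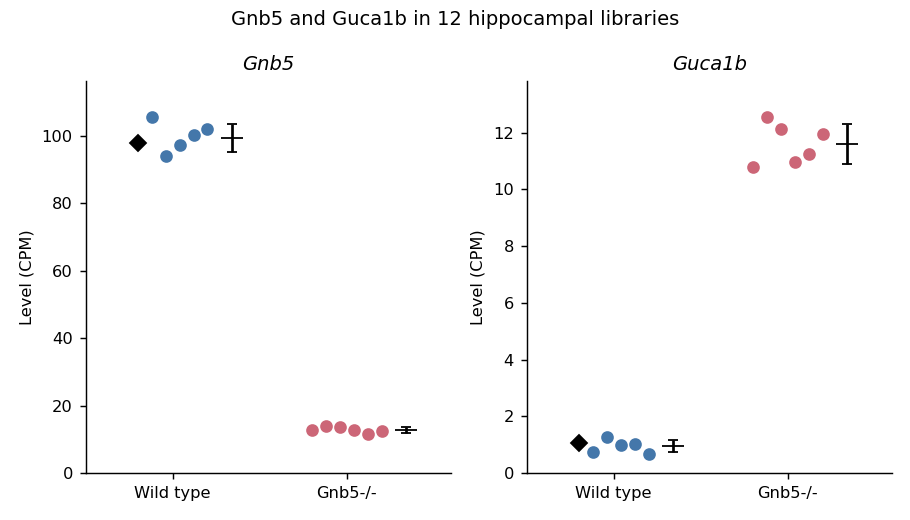
Gnb5 and Guca1b in each of the 12 hippocampal libraries, in CPM on linear axes from 0, with points for libraries (a diamond for wild-type replicate 1) and bars for the mean and SD of 6 mice per genotype. Gnb5 was 7.75-fold lower and Guca1b 12.1-fold higher in the knockouts, with no overlap for either.

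No gene around Guca1b passed the test with it. Within 1 Mb on either side, 40 other genes were tested and none was a DEG by edgeR, 1 having an unadjusted p below 0.05, as 7.7% of all genes tested did. Their log2 fold changes ran from −0.35 to 0.47 with a median of 0.004, 20 lying above and 20 below 0, and the lowest adjusted p was 0.540. Guca1a, the sister gene for the same kind of sensor, lies on the opposite strand, tail to tail with Guca1b and 1.59 kb beyond its end. How strand was set in counting is not given, so the strand of the reads counted for Guca1a is not known. Guca1a fell under the filter on low counts. It had 17, 34, 18, 13, 9 and 11 counts in the knockout libraries and 1, 2, 1, 8, 2 and 2 in the wild types. Each knockout count was above each wild-type count, and edgeR called it with no such filter and also without knockout replicate 5 or wild-type replicate 4. DESeq2 gave a log2 fold change of 2.57 (adjusted p = 0.00132), where DESeq2 called 0.514% of all genes.

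Guca1b was the 1 phototransduction gene that edgeR called with the filter on low counts. Of 34 phototransduction genes listed, 19 were tested and Guca1b alone was called (1 of 19, beside 0.165% of all genes); 12 lay above and 7 below 0, with a median log2 fold change of 0.080 against 0.000 over all genes. The next by p were Gucy2f, a retinal guanylate cyclase (log2 fold change −0.34, adjusted p = 0.612), Opn1mw, a cone opsin (−0.62, 0.614), and Abca4, the retinoid transporter of photoreceptor discs (−0.75, 0.661). None of the 3 passed the test. Gnat1 and Gnat2, the transducins of rods and cones, were too low to be tested.

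Guca1b belongs to the wider family of neuronal calcium sensors, which carry calcium signals to channels, receptors and cyclases in neurons. None of 11 other members tested passed the edgeR test; 8 lay above 0, and the median log2 fold change was 0.048. Kcnip2 and Kcnip1, which modulate A-type potassium channels, had log2 fold changes of 0.18 (adjusted p = 0.488) and −0.18 (0.637). Hpca, hippocalcin, had 0.20 (0.646).

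No gene for a partner of Gβ5 changed by the test. All 4 R7-RGS genes and the 4 genes for their membrane anchors were tested and none was a DEG, with a median log2 fold change of 0.036 and 6 of 8 above 0. Rgs6 had a log2 fold change of −0.08 (adjusted p = 0.896), Rgs7 of 0.04 (0.854), Rgs9 of 0.08 (0.942) and Rgs11 of 0.01 (0.971). Rgs7bp, which anchors the complex to the membrane, had 0.04 (0.873), and Gpr158, the orphan receptor that recruits Rgs7, had 0.03 (0.902). The widest of the 8 was Gpr179, the retinal counterpart of Gpr158, at −0.41 (0.692). These are transcript levels, and R7-RGS protein was not measured in these files. By immunoblot, the study reported Rgs7 protein as strongly lowered in knockout brain.

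No other Gβ gene rose or fell by the test. Per kilobase of exon, mean levels in knockouts and wild types were 128 and 127 CPM for Gnb1, 43.7 and 42.7 for Gnb2, 1.56 and 1.52 for Gnb4, and 4.12 and 31.9 for Gnb5. In wild-type hippocampus Gnb5 thus stood below Gnb1 and Gnb2 and well above Gnb4, and in the knockouts it was the nearest to Gnb4. The log2 fold changes of Gnb1, Gnb2 and Gnb4 were 0.01, 0.03 and 0.04, with adjusted p of 0.950, 0.857 and 0.934. Gnb3 was too low to be tested, with 3 to 10 counts in knockouts and 2 to 18 in wild types.

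The GIRK channel genes lie downstream of the R7-RGS complex, and none of the 4 passed the test. Kcnj3, Kcnj5 and Kcnj6 had log2 fold changes of 0.09, 0.29 and 0.09, and Kcnj9 of −0.13, with adjusted p between 0.663 and 0.873. Kcnj5 lies on chromosome 9, 43.0 Mb from Gnb5. Among the receptors and effectors of the same route, 0 of 31 genes for Gi/o-coupled receptors, 0 of 13 Gα, 0 of 11 Gγ and 0 of 9 adenylyl cyclase genes were called, and their median log2 fold changes ran from −0.04 to −0.01.

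The chromosome 9 genes are set apart because they are inherited together with the targeted allele to the degree that they lie near it. Without Gnb5, 1041 were tested, which is 5.92% of all genes tested, and 24 were DEGs, 11 higher and 13 lower in the knockouts. Of the 24, 4 lay towards the centromere from Gnb5, the farthest at 9.24 Mb, 19 lay towards the telomere, all within 40 Mb, and Gm19531 overlaps Gnb5. Of the 24, 18 are protein-coding genes. Groups did not overlap for 46 of the 1041 genes (4.42%), against 67 of 16546 (0.405%) elsewhere.

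The calls were gathered in stretches of the chromosome. Within 5 Mb of Gnb5, 8 of 77 genes tested were called, and between 5 and 10 Mb 1 of 57. From 10 to 20 Mb it was 4 of 161, and from 20 to 30 Mb 2 of 180. From 30 to 40 Mb it was 9 of 277, and from 40 to 80 Mb 0 of 289 by edgeR. In that last stretch the groups did not overlap for 2 genes, beside 0.648% of all genes tested. Without wild-type replicate 1 the counts in the same order were 7, 1, 5, 3, 14 and 0. Whether the knockout and wild-type chromosomes 9 differed in sequence in these stretches was not tested.

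**Figure D2:**
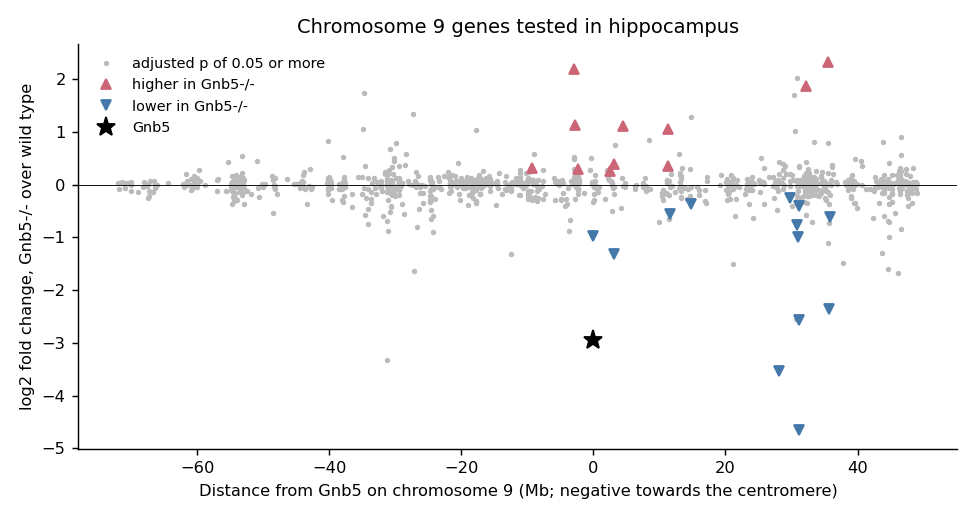
Log2 fold change (knockout minus wild-type hippocampus) of the chromosome 9 genes tested, against distance from Gnb5 in megabases, towards the centromere to the left and towards the telomere to the right, with DEGs marked. The DEGs begin 9.24 Mb from Gnb5 on the centromere side, and no gene beyond 40 Mb was called on either side.

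On the centromere side the called genes rose. Ppib, cyclophilin B of the endoplasmic reticulum, lies 9.24 Mb away and had 185, 189 and 198 CPM as lowest, median and highest knockout values against 139, 149.8 and 171 in wild types (log2 fold change 0.32, adjusted p = 0.00372). Mns1, a protein of sperm and motile cilia, lies 2.84 Mb away and had 5.00, 5.61 and 6.87 CPM against 1.99, 2.41 and 3.84 (1.13, adjusted p = 0.00372). Pygo1, a co-activator in Wnt signalling, had 111, 117 and 128 CPM against 91.7, 95.7 and 101 (0.29, 0.00372), and Gm37983 had 0.469, 0.734 and 0.941 against 0.0715, 0.147 and 0.288 (2.20, 0.00372). The groups did not overlap for any of the 4.

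Within 5 Mb on the telomere side, 3 genes rose and 1, of innate immunity, fell. Slc17a5, the lysosomal sialic acid transporter, had 34.3, 35.4 and 39.4 CPM against 26.0, 27.5 and 30.4 (log2 fold change 0.39, adjusted p = 0.00287). Elovl5, which elongates polyunsaturated fatty acids, had 83.4, 89.4 and 95.7 CPM against 69.1, 74.1 and 77.2 (0.26, 0.00686). Cgas, the sensor of DNA in the cytosol, had 0.634, 0.882 and 0.995 CPM against 1.37, 2.26 and 2.53 (−1.32, 0.00285). The groups did not overlap for these 3 genes. Filip1, a filamin-binding protein of migrating neurons, had 21.2, 25.7 and 33.2 CPM against 8.76, 10.8 and 21.9 (1.11, 0.0323). The overlap of its groups came from wild-type replicate 1, and without that library the adjusted p was 2.33e-05.

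Between 10 and 30 Mb, genes moved in both directions. Me1, the cytosolic malic enzyme that supplies NADPH, rose from 61.7, 66.2 and 70.9 to 78.1, 84.8 and 92.5 CPM (log2 fold change 0.35, adjusted p = 0.00325). A330041J22Rik, beside it, rose from a median of 1.5 to 3.34 CPM (1.05, 0.00496). Cyb5r4, a cytochrome b5 reductase, had 23.1, 28.0 and 29.8 CPM in knockouts and 28.7, 41.5 and 45.4 in wild types (−0.56, 0.0249). Its groups overlapped through wild-type replicate 1 at 28.7 CPM, and the adjusted p was 0.000103 without it. Morf4l1, a chromatin protein, fell from a median of 113 to 87.2 CPM (−0.37, 0.0209), and Mrpl3, of the mitochondrial ribosome, from 68.8 to 56.1 (−0.25, 0.0244). Bfsp2, an intermediate filament protein best known from the lens, had 0.102, 0.195 and 0.694 CPM against 1.28, 3.32 and 4.49 (−3.53, 0.0012), with no overlap.

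The densest stretch of lowered genes lay 30.8 to 31.1 Mb from Gnb5. Rpl29, a protein of the large ribosomal subunit, had 1.09, 1.24 and 1.52 CPM in knockouts against 5.09, 7.79 and 8.29 in wild types (log2 fold change −2.57, adjusted p = 7.31e-08). The groups were far apart, and the lowest wild type was replicate 1. Ppm1m, a protein phosphatase, had 11, 11.9 and 12.2 CPM against 18.1, 20 and 22.6 (−0.77, 2.75e-05). Poc1a, a centriole protein, had 4.31, 4.59 and 4.84 CPM against 6.97, 9.11 and 11.2 (−0.99, 0.00024). Abhd14a, a hydrolase-fold protein, had 18.8, 20.1 and 22.4 CPM against 24.0, 27.2 and 29.1 (−0.40, 0.00686). None of these 4 genes overlapped between groups. Gm28959, in the same stretch, had 0, 0, 1, 1, 1 and 0 counts in knockouts and 11, 13, 18, 16, 11 and 19 in wild types.

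Farther out, from 32.2 to 35.6 Mb, the directions were mixed again. Gm38150 had 0.803, 0.913 and 1.24 CPM against 0.129, 0.222 and 0.465 (log2 fold change 1.87, adjusted p = 0.00496). Prss45, a serine protease gene, had 0.838, 1.12 and 1.38 CPM against 0.0283, 0.161 and 0.597 (2.31, 0.0209), the highest wild type being replicate 1. Gm10030 fell from a median of 0.9 to 0.169 CPM (−2.36, 0.00139). The groups did not overlap for any of these 3 genes.

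The intermediate position of wild-type replicate 1 was not even along the chromosome. The 4 genes nearest to Gnb5 all lay within 3 Mb of it. There the library was at −0.174 for Mns1, −0.003 for Pygo1, 0.057 for Elovl5 and 0.282 for Gm37983. It was within the range of the other wild types for Mns1, Pygo1 and Elovl5, and outside it for Gm37983. At the 26 genes farther away the library lay between 0.206 and 1.16 with a median of 0.538. Examples were 0.634 for Cgas, 0.355 for Slc17a5 and 0.724 for Filip1. Within the range of the other wild types were Me1 at 0.206 and Mrpl3 at 0.347. Without the library 37 genes of 17703 were called (0.209%), 27 of them among the 29, and 31 of the 37 lay on chromosome 9, Gnb5 included. Camkk2 and Gm19531 were no longer called. Among the added genes, picked after their values were seen, were Col6a6, a collagen VI chain, and Col6a4, another. Col6a6 had 3.52 CPM in wild-type replicate 1, 0.645 to 1.05 in the other wild types and 3.65 to 5.28 in knockouts (adjusted p = 2.4e-06 without the library). Col6a4 went the other way, with 0.465 CPM in that library, 1.87 to 11.3 in the other wild types and 0.469 to 1.56 in knockouts (0.00643).

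Besides Guca1b, 3 genes outside chromosome 9 were called: Camkk2 and the processed pseudogenes Gm7049 and Oaz2-ps. Camkk2 (chromosome 5, 122731170 to 122779409, minus strand) encodes a calcium/calmodulin-dependent kinase that activates CaMKI, CaMKIV and AMPK. It had 189, 205 and 228 CPM in knockouts and 163, 165 and 190.4 in wild types (log2 fold change 0.29, SE 0.05, adjusted p = 0.0403). The groups overlapped at wild-type replicate 2, which had the 190.4. The call held in 2 of the 12 fits that left out 1 library, and without wild-type replicate 1 the adjusted p was 0.0955.

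Both called pseudogenes rose, and their sequence neighbours were the chromosome 9 genes printed above. Gm7049 (chromosome 13, 62813076 to 62814787, plus strand) matches Me1 at 98.4% of aligned bases, with 27 differences. It had 0.589, 0.929 and 1.11 CPM in knockouts and 0.0238, 0.0629 and 0.420 in wild types (log2 fold change 2.77, adjusted p = 0.0224). The highest wild type was replicate 1, and without it the values were 3.73 and 9.51e-05. Oaz2-ps (chromosome 3, 135525964 to 135526532, minus strand) matches Oaz2, an antizyme that limits polyamine synthesis, at 98.7% with 6 differences. It had 1.18, 1.42 and 1.6 CPM in knockouts and 0, 0.0374 and 0.531 in wild types (3.53, 0.0238), and again replicate 1 was the wild type at 0.531. Without that library the values were 5.43 and 1.1e-05. Oaz2 itself, 9.62 Mb from Gnb5, had medians of 104 and 98.8 CPM and did not pass the test (0.09, 0.557).

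A further 3 pseudogenes of this kind were looked at after their values were seen. Gm11868 matches Cyb5r4 at 98.0%, with 30 differences. It had 8.49, 9.20 and 10 CPM in knockouts, 0.0230 to 0.0693 in 5 wild types and 3.98 in wild-type replicate 1, so the adjusted p was 0.127 with all libraries and 9.99e-12 without that one. Gm8210 matches Rpl29 at 99.4%, with 3 differences, and had 26, 33, 33, 16, 20 and 27 counts in knockouts against 14, 1, 0, 0, 0 and 0 in wild types (adjusted p = 0.101; 2.33e-05 without replicate 1, the library with 14). Gm5561, which matches Rpl29 at 98.3% with 8 differences, had 0, 1, 0, 0, 0 and 0 counts in knockouts and 13, 24, 17, 10, 8 and 23 in wild types, and fell under the filter on low counts, without which edgeR called it. Copy and gene did not share 1 direction: Me1 and Gm7049 both rose, Cyb5r4 fell while Gm11868 was higher, and Rpl29 fell while Gm8210 was higher and Gm5561 lower. Of 402 processed pseudogenes tested, 2 were called, beside 0.165% of all genes. Of 421 tested without wild-type replicate 1, 4 were called, beside 0.209% of all genes. How the counting shared reads between a pseudogene and its chromosome 9 gene was not tested.

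**Figure D3:**
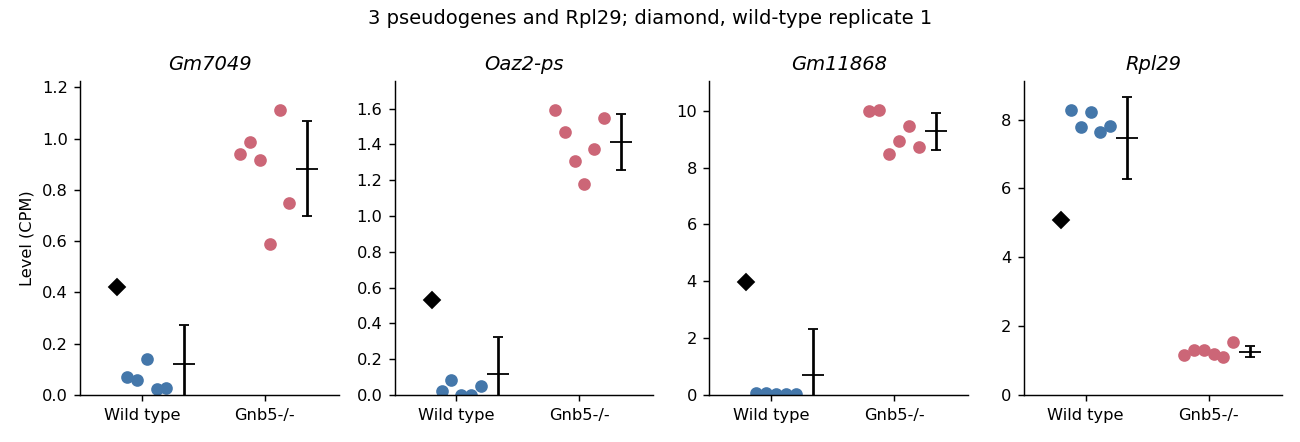
CPM, on linear axes from 0, of Gm7049, Oaz2-ps, Gm11868 and Rpl29 in each hippocampal library, with the mean and SD of 6 mice as bars and a diamond for wild-type replicate 1 (lower bars that would pass below 0 end at 0). The diamond lies between the groups for each gene, at 0.420, 0.531, 3.98 and 5.09 CPM.

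Pathways and cell types were described with 50 lists of genes, which held 832 genes tested. Chromosome 9 genes stayed in the lists. Guca1b was the 1 member called, and 42 of the 50 list medians lay within 0.1 of 0 on the log2 scale, beside a median of 0.000 over all genes. The groups of genes that follow are given by how many of their members lay on each side of 0, where 49.9% of all genes lay below 0 and 50.1% above. No member of these groups passed the edgeR test with genotype alone and all 12 libraries, so the values are levels and differences without a call. Some members passed in alternative fits, which are given at the end.

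Interneuron markers and neuropeptides lay mostly lower in the knockouts. Of 24 tested, 18 (75%) were below 0 and 6 above, the highest log2 fold change being 0.257. The median was −0.152, and for 3 the knockouts all lay below the wild types, beside 0.296% of all genes. The genes given singly below were picked by smallest p or after their values were seen. They do not stand for the whole list or for interneurons as a class. Over 20 ways of fitting, the median ran from −0.186 to −0.0928. The summed level of the list was 1257 to 1593 CPM in knockouts and 1582 to 1780 in wild types.

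Sst, somatostatin of dendrite-targeting interneurons, had 57.0, 88.2 and 100.1 CPM in knockouts and 112, 119 and 165 in wild types (log2 fold change −0.62, adjusted p = 0.102). Each knockout value was below each wild-type value. Npy, neuropeptide Y, had 14.7, 18.4 and 22.1 CPM against 20.3, 25.8 and 30.2 (−0.52, 0.0947), with some overlap. Nos1, the neuronal nitric oxide synthase found in several interneuron types, had 157, 179 and 198 CPM against 200.5, 211 and 228 (−0.26, 0.113). Cort, cortistatin, had 0.9, 1.17 and 1.47 CPM against 1.53, 1.95 and 2.67 (−0.74, 0.133). The groups did not overlap for Nos1 and Cort. DESeq2 called these 4 genes lower, with adjusted p of 0.000704 for Sst, 0.000984 for Npy, 0.00453 for Nos1 and 0.0118 for Cort. Crhbp, a binding protein for corticotropin-releasing hormone made by interneurons, was added after its values were seen and had 9.57, 14.2 and 19.3 CPM against 20.5, 22.0 and 34 (−0.70; adjusted p = 0.116 by edgeR, 0.00134 by DESeq2).

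**Figure D4:**
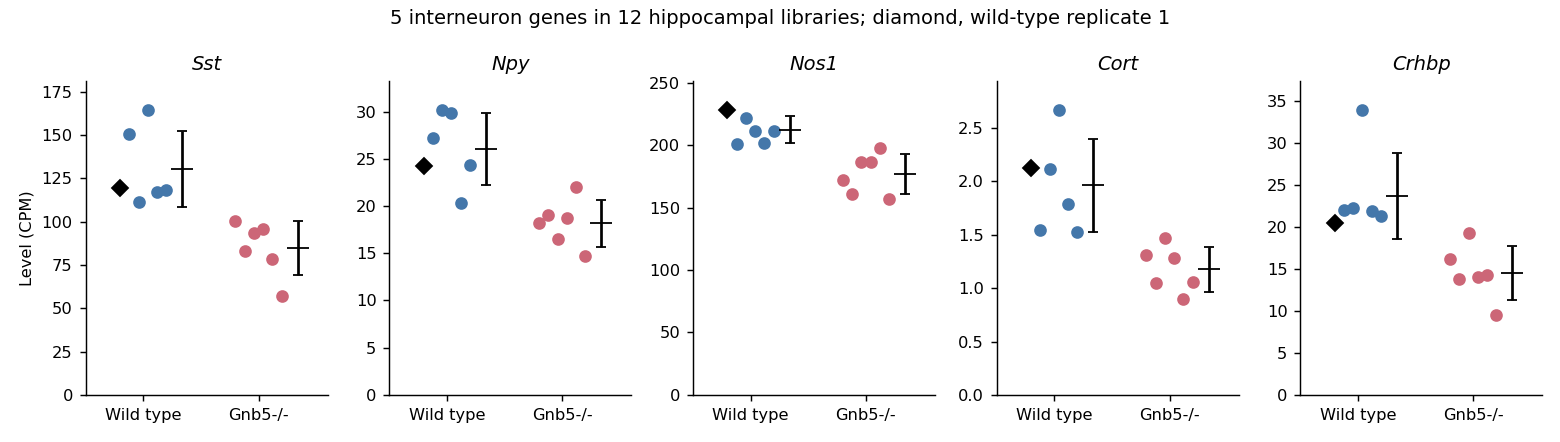
CPM, on linear axes from 0, of 5 interneuron genes (Sst, Npy, Nos1, Cort and Crhbp) in the 12 hippocampal libraries, with the mean and SD of 6 mice per genotype and a diamond for wild-type replicate 1. Knockout values lie below all wild-type values for each gene but Npy. None passed the edgeR test with genotype alone and all 12 libraries.

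Markers of the principal cells did not move as a block. Of 12 CA1 pyramidal markers tested, 7 lay below 0 with a median of −0.015. Wfs1, a protein of the endoplasmic reticulum strong in CA1, had 152, 185 and 201 CPM in knockouts and 109, 129 and 163 in wild types (log2 fold change 0.44, adjusted p = 0.101 by edgeR, 0.00131 by DESeq2), with overlap of the groups. The other CA1 examples were Man1a at −0.14 and Mpped1 at −0.10. Of 14 dentate granule cell markers, 11 lay above 0 with a median of 0.108; Dsp, desmoplakin, had 0.38 (adjusted p = 0.582) and Lct, lactase, 0.44 (0.658). Medians for CA2 and CA3 markers, mossy cell markers and astrocyte markers were −0.054, 0.007 and −0.006.

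Synaptic genes lay slightly above 0. Of 27 postsynaptic scaffold genes 22 were above 0, with a median log2 fold change of 0.069, and of 45 presynaptic release genes 31, with a median of 0.041. Without wild-type replicate 1, 9 of the 27 lay below 0 in place of 5, with a median of 0.055. Of the 45, 15 did in place of 14, with a median of 0.034. Dlg4, which encodes PSD-95, and Nlgn1, neuroligin 1, each had 0.11, and Dlg3, which encodes SAP102, had 0.12. Synpo, synaptopodin of the spine apparatus, had 0.10 (adjusted p = 0.642). Medians for AMPA, kainate and delta receptor subunits, NMDA receptor subunits and GABA-A receptor subunits were 0.027, 0.030 and 0.067.

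Chaperone genes lay below 0 almost throughout. This held for 19 of 20 heat shock and chaperone genes (median log2 fold change −0.134) and 22 of 23 genes of the unfolded protein response (median −0.175). An unadjusted edgeR p below 0.05 was found for 5 of the 20 and 2 of the 23, beside 7.7% of all genes. The groups overlapped for every member. Hspb1, a small heat shock protein, had −0.84 (adjusted p = 0.27 by edgeR, 0.0205 by DESeq2), and Hspa1b, the inducible HSP70, −0.77 (0.312 and 0.0218). Hspa5, which encodes the chaperone BiP, had −0.35, and Manf and Calr, proteins of the endoplasmic reticulum, −0.29 and −0.22. Manf lies on chromosome 9, 31.5 Mb from Gnb5. In all, 3 of the 20 and 2 of the 23 genes lie on that chromosome.

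Medians of thalamic and habenular, neocortical and striatal markers were −0.050, 0.031 and −0.025, and those of some other lists lay farther from 0. The thalamic and habenular median was 0.020 without wild-type replicate 1. All 16 choroid plexus and ependymal markers tested lay below 0, with a median log2 fold change of −0.990, and none was called. Their summed level ran from 176 to 609 CPM in knockouts and from 200 to 2594 in wild types, so the ranges overlapped widely. Folr1 and Aqp1, both strong in choroid plexus epithelium, had −2.20 and −1.69, and −1.01 and −0.72 without wild-type replicate 5, their highest library. Oligodendrocyte and myelin genes lay below 0 for 17 of 20, with a median of −0.109 and sums of 2699 to 4121 CPM against 3051 to 5030. Red blood cell markers lay below 0 for 5 of 5, with a median of −0.353. For meningeal and fibroblast markers, 11 of 12 lay below 0 with a median of −0.135, but without wild-type replicate 1 only 3 of 12 did, with a median of 0.080. No marker tested in these lists was at 0 in all 12 libraries, which the filter on low counts had ensured beforehand. The part of such tissue in the interneuron and chaperone values was not tested.

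Hes5 and Sox6 are regulatory genes that the study reported as DEGs in hippocampus, using DESeq2. Here DESeq2 called both and edgeR called neither. Hes5, a Notch target of neural progenitors and glia, had 5.13, 5.76 and 7.42 CPM in knockouts and 2.91, 3.55 and 5.67 in wild types (log2 fold change 0.57; adjusted p = 0.326 by edgeR, 0.0447 by DESeq2). Sox6, a transcription factor of interneurons and oligodendrocyte precursors, had 21.7, 24.5 and 26.3 CPM against 26.0, 28.4 and 29.9 (−0.21; 0.188 and 0.0303). The groups overlapped for Hes5 and Sox6. Medians for 20 Notch pathway genes and 15 Sox genes were −0.011 and −0.067, with none called by edgeR.

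The cortex and cerebellum of the same mice were used to ask which hippocampal differences were particular to the region. Of the 29 hippocampal DEGs, 27 could be tested in cortex, where 9 were called in the same direction, and 28 in cerebellum, where 7 were; none was called in the opposite direction with all libraries. Over all genes the calls were 10 of 17967 in cortex (0.0557%) and 14 of 17139 in cerebellum (0.0817%). In cortex, knockout replicates 3 and 5 stood apart with 6.86% and 8.32% of uniquely mapped reads outside genes, where the other 10 libraries had 13.1% to 15.6%. In cerebellum, knockout replicate 2 had 8.02% and the other 11 libraries 14% to 17%. Without these 3 libraries, 20 of 29 hippocampal DEGs were called in the same direction in cortex, beside 26 of 18269 genes (0.142%), and 19 of 28 in cerebellum, beside 62 of 17255 (0.359%). Mns1 was then called in the opposite direction in cerebellum. The knockout effects on Gnb5 were −2.95, −3.09 and −2.84 in hippocampus, cortex and cerebellum on the log2 scale, those on Guca1b 3.60, 4.43 and 3.96, and those on Rpl29 −2.57, −2.71 and −2.56. The interaction test called no difference between regions for any of these 3 genes.

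The knockout effect was tested for a difference between regions in 1 fit of the 36 brain libraries with the mouse as a block. Between hippocampus and cortex 0 of 19388 genes (0%) differed by edgeR, 857 (4.42%) having an unadjusted p below 0.05. Between hippocampus and cerebellum 5 (0.0258%) differed, all on chromosome 9, and 721 (3.72%) had an unadjusted p below 0.05. Without the 3 libraries that stood apart 18 differed, 12 of them on chromosome 9 and all 5 included, and 3 differed between hippocampus and cortex. Mns1 rose in hippocampus (1.13) and in cortex (1.70) and had −0.96 in cerebellum (adjusted p = 0.583), a difference of 2.13 (SE 0.25, adjusted p = 0.000306) between hippocampus and cerebellum. Slc17a5 had 0.39 in hippocampus and −0.28 in cerebellum, a difference of 0.68 (SE 0.11, adjusted p = 0.0208). These were the called genes among the hippocampal DEGs. Camkk2 had 0.29 in hippocampus, −0.19 in cortex and −0.08 in cerebellum, and Filip1 1.11, 0.22 and 0.94, with no difference called with all libraries; without those 3 libraries Filip1 differed between hippocampus and cortex (adjusted p = 0.0286).

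**Figure D5:**
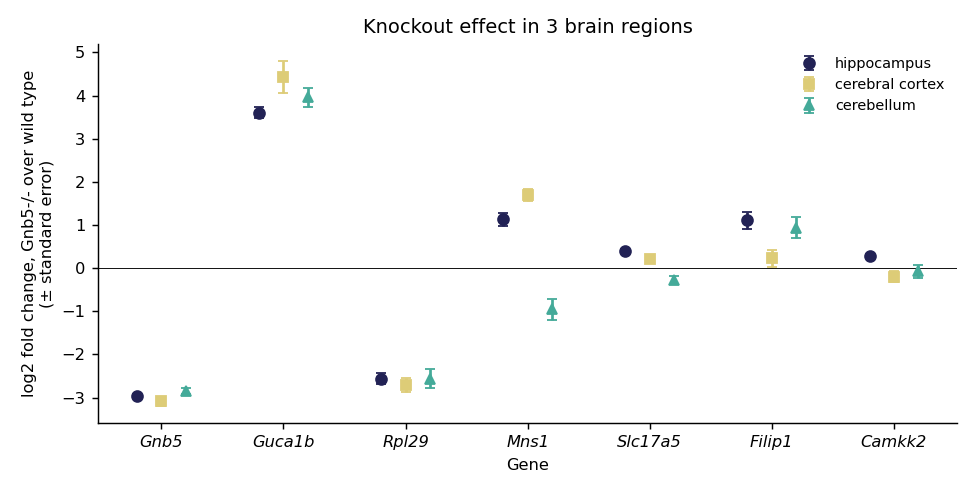
Log2 fold change (knockout minus wild type, with its standard error) of Gnb5, Guca1b, Rpl29, Mns1, Slc17a5, Filip1 and Camkk2 in hippocampus, cortex and cerebellum, 6 mice per genotype in each. Gnb5 and Rpl29 had similar values in the 3 regions, and Guca1b had 3.60, 4.43 and 3.96 in hippocampus, cortex and cerebellum. Mns1 and Slc17a5 lay on opposite sides of 0 in hippocampus and cerebellum.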

How the data were processed

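Total RNA of each tissue was converted to libraries with the TruSeq Stranded Total RNA kit and sequenced as single-end reads. Per the methods, reads were trimmed with cutadapt (1.8), screened for contaminants, aligned to GRCm38 with STAR (2.5.3a) and counted per gene with HTSeq (0.9.1), and the counts deposited by the authors are raw and unnormalised. Versions are as in the submitters' processing notes. Of 53715 gene IDs, 53620 were matched to GENCODE M21 for symbols and coordinates. HTSeq's summary lines stayed out of library sizes.

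The 6 knockout and 6 wild-type hippocampal libraries were fitted in edgeR (4.0.16, R 4.3.3) with genotype alone, TMM factors, filterByExpr at a minimum count of 10, the quasi-likelihood test and Benjamini-Hochberg adjustment over all genes tested (threshold 0.05). CPM were scaled by TMM, and single-gene permutation tests used log2 CPM with a prior count of 2. Numbered replicates are separate mice. DESeq2 (1.42.0), sva (3.50.0), other scalings and filters, a replicate block and leaving out each library were alternatives. The scripts were tested on simulated data. Pseudogenes were matched to transcripts with BLAST+ (2.17.0+). Same-numbered knockout and wild-type mice were not treated as pairs.

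The genes named were Gnb5, Guca1b, genes the study names for hippocampus, called genes by smallest adjusted p, called list members and up to 4 list members of smallest p. Members and lists were chosen with earlier results of these data known. Heart libraries were not used here. Some genes covered by the rule are not reported here.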

Additional observations from a re-analysis of the deposited data

Results flagged for a closer look

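Single libraries lying far from the other 5 of their group were sought with Dixon's criterion in 176 groups of 6 (88 genes). It marked 28 values (15.9%), where chance marks about 1 in 20, and 9 of the 28 were in wild-type replicate 1. Of the 88 genes, 9 were added after their values were seen, some of them for that library, so the share is partly set by the choice of genes; over the other 79 genes (158 groups) 23 values were marked (14.6%), 6 of them in that library.

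In that library the values, with the range of the other 5 wild types, were Rpl29 5.09 CPM (7.65 to 8.29), Prss45 0.597 (0.0283 to 0.191), Cyb5r4 28.7 (40.3 to 45.4), Filip1 21.9 (8.76 to 11.6) and Col6a6 3.52 (0.645 to 1.05), all on chromosome 9. The pseudogenes there were Gm7049 at 0.420 CPM (0.0238 to 0.138), Oaz2-ps at 0.531 (0 to 0.0848), Gm11868 at 3.98 (0.0230 to 0.0693) and Gm8210 at 0.310 (0 to 0.0231). Each of the 9 lay towards the knockout level.

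In the other wild types, Camkk2 was 190.4 CPM (163 to 170.3) and Man1a 89.9 (78.4 to 81.3) in replicate 2, and Gucy2f 1.70 (2.17 to 2.43) in replicate 3. Replicate 4 had Guca1a at 0.184 CPM (0.0221 to 0.0517) and Crhbp at 34 (20.5 to 22.3), and replicate 6 Gnb4 at 16 (19 to 20.8). Replicate 5 had Abca4 at 14.2 CPM (2.74 to 5.96), Folr1 at 11.3 (0.393 to 4.46) and Aqp1 at 9.39 (0.485 to 2.77), the last a choroid plexus marker like Folr1.

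Among knockouts, replicate 1 had Manf at 40.3 CPM (26.9 to 28.0), Hspa5 at 394 (199 to 252), Dynlrb2 at 0.654 (0.307 to 0.378), Folr1 at 1.76 (0.282 to 0.703) and Aqp1 at 1.88 (0.333 to 0.774). Replicate 2 had Ppm1m at 11 CPM (11.8 to 12.2), Bfsp2 at 0.694 (0.102 to 0.275) and Gm5561 at 0.0210 (0 in the other 5), and replicate 6 Dsp at 114 (62.9 to 81.0) and Npnt at 58.3 (36.4 to 42.8).

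The knockout effect differed between hippocampus and cerebellum for 5 genes of chromosome 9 by the interaction test (log2, hippocampus minus cerebellum): Mns1 2.13, Slc17a5 0.68, Nt5e 0.79, Dclk3 −1.37 and Cgnl1 −1.87. Without the libraries of the mouse of wild-type replicate 1, the adjusted p of Cgnl1 was 0.073.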

How the results depend on the processing

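Gnb5 and Guca1b kept their direction and call under every alternative run. DESeq2 called 110 genes of 21397 (0.514%), 54 higher and 56 lower, 56 of them on chromosome 9 besides Gnb5 and 53 outside it, and 11 list genes. Requiring at least 10 counts in every library left 9 higher genes and 1 call outside chromosome 9. List genes numbered 2 with no filter on low counts and 2 with 1 surrogate variable. Leaving out 1 library gave 21 to 37 DEGs, 1 to 7 outside chromosome 9 and 1 to 4 list genes. Among the list genes, edgeR called Npy and Nos1 without knockout replicate 5, Npy without wild-type replicate 5 and Wfs1 without wild-type replicate 2. It called Sst with 1 surrogate variable, and Dsp and Lct with the replicate block. RLE scaling gave 29 DEGs and robust fitting 28. With the replicate block, 19 DEGs were called, 9 lower and 14 on chromosome 9 besides Gnb5, and 4 list genes; the numbers did not pair the mice, since deviations of same-numbered libraries correlated at −0.232 to 0.0117 over 6 pairs and 0 of 6 knockouts correlated best with their own number. Without cortex knockout replicate 3 and cerebellum knockout replicate 2 together, an alternative chosen after seeing the data, 3 genes differed between hippocampus and cortex and 8 between hippocampus and cerebellum; without cortex knockout replicate 5 as well, likewise chosen after seeing the data, 3 and 18 differed. With only the 2 regions in the fit, 2 differed between hippocampus and cerebellum. Over the single genes named, 4196 values kept their call, 32 gained it, 92 lost it and 0 reversed. The cause was not tested. Guca1a and Gm5561 fell under the filter on low counts, and edgeR called both without it.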
